A study of Homo sapiens with 3 samples.

Results

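The keratin genes are the protein-coding genes whose name is KRT followed by a number and, for some, a letter from A to C. The keratin-associated KRTAP genes, which encode matrix proteins of the hair, were left out. This rule, which uses names and no measured value, took 55 of the 58735 genes listed, 29 of them type I and 26 type II. The data were RNA-seq counts of 3 libraries of DU145, an established human prostate cancer line derived from castration-resistant disease. One library is labelled as control. The other 2 came from cells labelled PD-L1 knockdown 1 and PD-L1 knockdown 2, which carried shRNA 1 and shRNA 2 against PD-L1. The paper describes its stable lines as lentiviral and selected with puromycin, with the empty pLKO.1 vector as control. Its RNA-seq section names the control cells only as DU145. No other genotype or treatment is named, and no source names more than 1 culture per line. The comparison asks which RNAs differ after PD-L1 knockdown in castration-resistant cells.

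CD274, the gene of PD-L1, had 204 counts in the control, 213 in labelled knockdown 1 and 224 in labelled knockdown 2, a log2 fold change of 0.05 with a standard error (SE) of 0.20 and an edgeR adjusted p of 0.947. The targeted RNA thus did not follow the labels. The paper states that its stable lines were checked by western blot, which measures protein and not RNA. The control's column is headed with another gene, RBM45, and the series text names the thyroid line BCPAP. Therefore "labelled knockdown" below refers to labels and every direction rests on them. The libraries held 14733088 to 15786457 counts, at which a count of 0 allows up to 0.190 to 0.204 CPM (counts scaled to a library of 1000000 counts), taken as 3 counts. Of the epithelial markers, EPCAM had 778, 755 and 907 counts and CDH1 had 2384, 2072 and 2940. Of the prostate luminal markers, KLK2, KLK3 and TMPRSS2 had no count in any library. Of the thyroid markers, TG had 11, 3 and 15 counts, PAX8 had 13, 28 and 29 and TSHR had 2, 3 and 2. The fibroblast list summed to 107, 101 and 155 with DCN and LUM at 0, the leukocyte list to 18, 13 and 12 with CD3E at 0, and the endothelial list to 4, 12 and 7. No marker named here was called at the adjusted threshold used below.

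Keratins are the intermediate filament proteins of epithelial cells. A type I keratin, which is acidic, pairs with a type II keratin, which is basic or neutral, and the pairs assemble into filaments that are tied to desmosomes and hemidesmosomes. Simple epithelia use KRT8 and KRT18, often with KRT7 and KRT19, whereas stratified epithelia use KRT5 and KRT14 in the basal layer and other pairs above it. In the prostate, luminal cells are known for KRT8 and KRT18 and basal cells for KRT5 and KRT14, and pathologists use these proteins to tell cell layers and tumours apart. Further members build hair, nail and the root sheath of the hair follicle.

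The genes are close relatives, and the part that encodes the end of the central rod, the stretch at which the coiled coil of the partners stops, is among the most conserved. The 30 coding bases there are shown 5′ to 3′ on the coding strand for the 5 best counted members, KRT10 and the counted hair keratins, because they show how little separates some of these genes for a short read. Capitals mark bases that differ from KRT8. The sequences are those of the GENCODE release 29 transcripts, with GRCh38 positions.
KRT8, chr12:52898684-52898713, minus strand: acctacaggaagctgctggagggcgaggag
KRT7, chr12:52245598-52245627, plus strand: acctacCgCaagctgctggagggcgaggag
KRT80, chr12:52172203-52172232, minus strand: acctacaggaagctgGtggagggcgaggag
KRT18, chr12:52952305-52952334, plus strand: acctacCgCCGCctgctggaAgATgGCgag
KRT19, chr17:41523782-41523811, minus strand: acctacCgCaGCctgctCgagggACaggaA
KRT10, chr17:40819519-40819548, minus strand: acctacCgCaGCctgctAgaAggAgaggGA
KRT81, chr12:52287107-52287136, minus strand: acctacaggCGCctgctggagggcgaggag
KRT86, chr12:52306246-52306275, plus strand: acctacaggCGCctgctggagggcgaggag
KRT83, chr12:52315898-52315927, minus strand: acctacaggCGCctgctggagggcgaggag
Each stretch lies within 1 coding exon. KRT80 differs from KRT8 at 1 base and KRT7 at 2, whereas the type I members KRT18, KRT19 and KRT10 differ at 10, 8 and 9. KRT81, KRT83 and KRT86 carry the same 30 bases.

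KRT81 and KRT86 are alike over much longer stretches, and this bears on every value given for them. Their coding sequences share an unbroken identical run of 605 bases, from coding base 61 to 665 of KRT81. The first 90 bases of that run, on the minus strand of chromosome 12 in KRT81, are shown here, and a read within them cannot be assigned to either gene by sequence.
KRT81 and KRT86, chr12:52291316-52291405: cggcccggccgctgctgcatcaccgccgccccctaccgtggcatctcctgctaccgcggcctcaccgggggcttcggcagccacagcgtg
The longest run that KRT81 shares with KRT83 is 95 bases and that of KRT86 with KRT83 is 77. In the simple epithelial group, the longest identical run was 41 bases for KRT7 with KRT8 and 17 for KRT18 with KRT19, and other pairs were not compared.

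Of the 55 keratin genes, 33 had no count in any library, which is 60% of them against 18.9% of the other protein-coding genes. A further 10 had 1 to 9 counts summed over the libraries, and 12 had at least 10 and were tested. Only 9 had a mean of at least 100 counts. Nearly all keratin counts came from KRT7, KRT8, KRT18, KRT19 and KRT80, which held 98.7%, 98.4% and 98.6% of the keratin counts in the control, labelled knockdown 1 and labelled knockdown 2. Keratin counts in all were 53789, 59745 and 68274, or 0.365% (95% Wilson interval 0.362 to 0.368), 0.405% (0.402 to 0.409) and 0.432% (0.429 to 0.436) of each library's counts. These intervals, and all others given for counts, cover counting error only. In such bulk libraries, fewer cells that make a keratin and less of its RNA per cell cannot be told apart.

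The best counted genes of chromosome 12 sat at the ends of the gene cluster. The 27 keratin genes of chromosome 12 hold every type II gene and the type I gene KRT18, and the other 28 lie on chromosome 17. On chromosome 12, KRT80 and KRT7 open the cluster and KRT8 and KRT18 close it, and the 16 genes from KRT85 to KRT76 between them had at most 4 counts each, with 13 of them at 0. On chromosome 17, the 15 genes from KRT12 to KRT13, between KRT10 and KRT15, had at most 7 counts each, with 13 at 0.

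**Figure D1:**
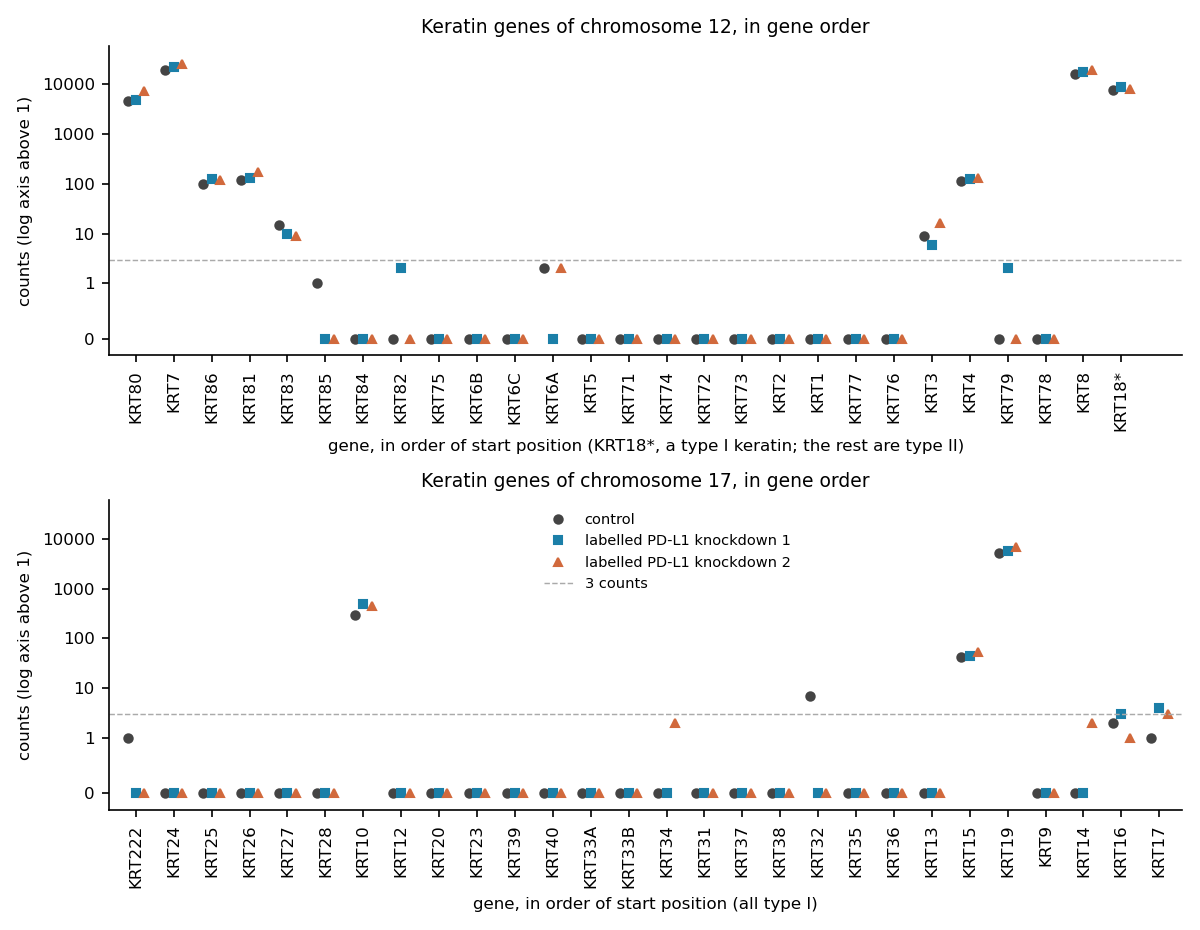
Counts of each of the 55 keratin genes in the 3 libraries, with genes on the horizontal axis in order of start position on chromosome 12 (top) and chromosome 17 (bottom), and counts on a vertical axis that is logarithmic above 1. The dashed line marks 3 counts. The high genes KRT80, KRT7, KRT8 and KRT18 stand at both ends of the chromosome 12 cluster, with KRT19 and KRT10 the highest on chromosome 17, and the libraries lie close together.

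By group, the simple epithelial keratins were the most counted, with 48485, 53956 and 59967 counts, and 4 of the 6 had counts. The exceptions were KRT20, a marker of intestinal and urothelial cells, and KRT23, both at 0. Of the basal layer keratins, KRT5 had no count, KRT14 had 0, 0 and 2, and KRT15 had 43, 44 and 52. The 5 stress and wound keratins, among them KRT16 and KRT17, which epithelia make after injury, summed to 5, 7 and 6 counts. All 9 keratins of the inner root sheath and companion layer of the hair follicle were at 0. Of the 17 hair and nail keratins, 7 had a count, nearly all of it on the type II members KRT81 and KRT86. Of the 14 suprabasal and mucosal keratins, 5 had a count.

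Several counted keratins lacked their usual partner. KRT10, which pairs with KRT1 or KRT2 in the upper epidermis, had 299, 480 and 453 counts, and both partners were at 0. KRT4, which pairs with KRT13 in mucosal epithelia, had 115, 127 and 130 counts, and KRT13 was at 0. KRT3, which pairs with KRT12 in the cornea, had 9, 6 and 16 counts, and KRT12 was at 0. KRT81 and KRT86 were counted, whereas of the 11 type I hair keratins only KRT32 and KRT34 had any count, with 7, 0 and 0 and with 0, 0 and 2.

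Levels of different genes can be compared only per length, for which the deposited FPKM, the count divided by gene length and by the depth of the library, was used. KRT7 was the highest keratin, with 322, 360 and 399 FPKM. KRT18 followed with 163, 182 and 161 FPKM, KRT8 with 157, 176 and 175, and KRT19 with 147, 162 and 186. These 3 neighbours did not keep an order, since KRT19 was the lowest of them in the control and the highest in labelled knockdown 2. KRT80 had 71.1, 75.5 and 107 FPKM, and KRT10 had 9.39, 15.1 and 13.4. KRT81, KRT86 and KRT4 lay between 2.34 and 5.54 FPKM, and KRT15, KRT83 and KRT3 below 1 FPKM.

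The order below KRT7 depended on the length used. The listed length joins all annotated exons of a gene, and for KRT8 it is 6881 bases against 2126 in its principal transcript. With principal transcript lengths, chosen after the data were seen, KRT8 came to 509, 570 and 567 FPKM, above KRT18 at 336, 375 and 332. On listed lengths the type I members summed to 0.571, 0.577 and 0.521 of the type II members, and on principal transcript lengths to 0.439, 0.440 and 0.404. Type II exceeded type I RNA in every library under both lengths, and both ratios were lowest in labelled knockdown 2.

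**Figure D2:**
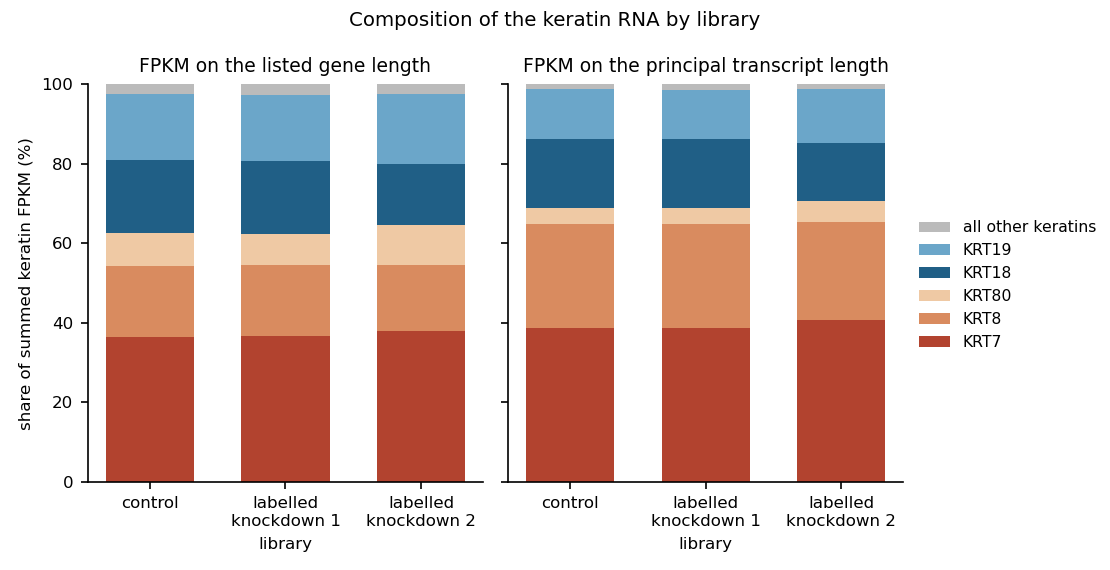
Share of the summed keratin FPKM (vertical axis, percent) held by each of the 5 best counted keratins and by all others together in each library (horizontal axis), with red shades for type II and blue for type I, on listed gene lengths (left) and principal transcript lengths (right). On listed lengths KRT7 holds 36.5% of the control and KRT18 18.5%, and KRT18 is at 15.3% in labelled knockdown 2.

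In the comparison of both labelled knockdown libraries with the control, no keratin passed the test. All genes with at least 10 counts summed were fitted with edgeR's quasi-likelihood test, and a gene was called at a Benjamini-Hochberg adjusted p under 0.05. Of the 12 tested keratins, 0 were called with edgeR, with DESeq2 or with limma-voom, where 0.353% of all 19849 tested genes were called with edgeR. At an unadjusted p under 0.05, edgeR and limma-voom each gave 4 keratins, KRT7, KRT10, KRT19 and KRT80, and DESeq2 gave KRT10 alone. All 4 had the higher value in the labelled knockdown libraries, against 6.82% of all tested genes that were under that p and higher. Under that p and lower were 0 keratins, against 4.92% of all tested genes. At a further threshold, an unadjusted p under 0.05 with an absolute log2 fold change above 1, no keratin qualified, against 2.48% of all tested genes. The control has 1 library, so the fit has 1 residual degree of freedom and the p-values rest on the spread between 2 libraries made with different shRNAs. That spread was estimated jointly for genes of like mean count, so a gene's SE does not reflect how closely its own 2 libraries lay together.

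The fitted values were mostly small and positive. Their median was 0.22 on the log2 scale over the 12 tested keratins, against 0.0015 over all tested genes, and 11 of the 12 were above 0, against 50.2% of all genes. In CPM the control was the lowest of the 3 libraries for 9 of the 12, against 35.7% of all genes. The exceptions were KRT18, KRT3 and KRT83. GC content moved with these values across all genes. The 10861 genes that averaged 100 counts or more were split into 5 equal classes by GC content, and their median log2 fold change was -0.18 in the GC-poorest class and 0.22 in the GC-richest. Of the 9 keratins at that count, 4 (KRT7, KRT19, KRT81 and KRT86) were in the GC-richest class, 4 (KRT4, KRT8, KRT18 and KRT80) in the next, where the median was 0.12, and KRT10 in the middle one, at -0.01. The trends of GC content and gene length were also removed, an alternative chosen after the data were seen. The median over the 12 was then 0.056, against 0.016 over all tested genes. Of the 12, only KRT18 and KRT83 were below 0, at -0.10 and -0.88. In that fit 0 were called and only KRT10 had an unadjusted p under 0.05.

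**Figure D3:**
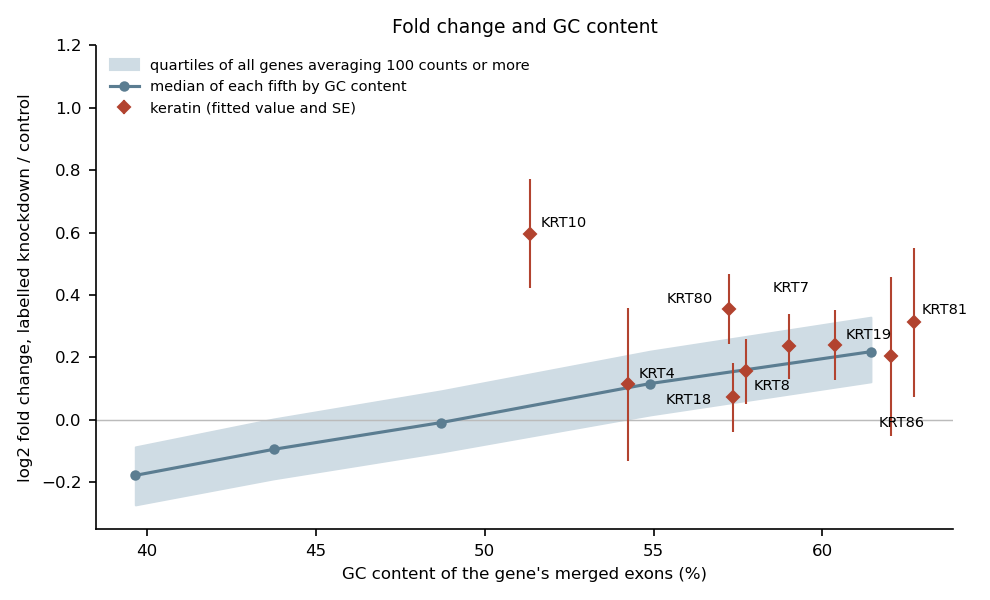
Fitted log2 fold change (vertical axis) against GC content in percent (horizontal axis), for the 9 keratins averaging 100 counts or more (diamonds, with SE) and for all genes at that count (median of each of 5 GC classes as a line, quartiles as the band). GC content was taken over all annotated transcripts of a gene together, although the axis names merged exons. All but KRT10 and KRT80 lie within or near the band, which rises from a median of -0.18 to 0.22, and KRT10 stands above it at 0.60.

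KRT10, a type I keratin of cells that have left the basal layer, had the largest fitted value among the well counted members. It had 299 counts in the control, 480 in labelled knockdown 1 and 453 in labelled knockdown 2, or 20.3, 32.6 and 28.7 CPM. Both labelled knockdown libraries were above the control, by a ratio of 1.60 (95% exact counting interval 1.39 to 1.86) and 1.41 (1.22 to 1.64). The log2 fold change was 0.60 with an SE of 0.17, an edgeR unadjusted p of 0.00064 and an adjusted p of 0.0955. Under the alternatives with a test it lay between 0.58 and 0.61. Its adjusted p lay between 0.0712, with a minimum of 60 counts, and 1.00, with DESeq2. Without labelled knockdown 1 the log2 fold change was 0.50, and without labelled knockdown 2 it was 0.69.

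KRT10 overlaps another gene on the opposite strand. TMEM99 covers 3490 bases of the KRT10 gene, introns included, and its values went the other way, with 181, 143 and 133 counts. Its log2 fold change was -0.44 with an SE of 0.22, an unadjusted p of 0.0495 and an edgeR adjusted p of 0.425. No source used here states that the counting used strand, so the reads of the pair cannot be told apart with certainty. Summed, the pair had 480, 623 and 586 counts, and its ratio to the control was 1.30 (95% exact counting interval 1.15 to 1.46) and 1.14 (1.01 to 1.29), smaller in both libraries than for KRT10 alone.

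KRT80, a type II keratin found at desmosomes of differentiating cells, differed mainly in 1 library. It had 4591, 4856 and 7351 counts, or 312, 329 and 466 CPM. Labelled knockdown 1 was near the control, at a ratio of 1.06 (95% exact counting interval 1.02 to 1.10), and labelled knockdown 2 was above it, at 1.49 (1.44 to 1.55). The labelled knockdown libraries differed from each other by a ratio of 1.41 (1.36 to 1.47), more than the first differed from the control. The fitted log2 fold change was 0.36 with an SE of 0.11 and an edgeR adjusted p of 0.142. Without labelled knockdown 2 it was 0.09, and with GC content and length trends removed 0.19, with an adjusted p of 0.704 in a range over the alternatives of 0.116 to 1.00. KRT80 lies within the span of LINC00592 on the opposite strand, but that gene had 2, 1 and 1 counts.

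KRT7, the type II keratin of glandular and ductal epithelia and the most counted member, had 19541, 21789 and 25835 counts, or 1326, 1478 and 1637 CPM. It ranked 40th, 33rd and 31st of all genes by count. Both labelled knockdown libraries were above the control, by a ratio of 1.11 (95% exact counting interval 1.09 to 1.14) and 1.23 (1.21 to 1.26). The log2 fold change of 0.24 had an SE of 0.10, an edgeR unadjusted p of 0.0234 and an adjusted p of 0.345. With GC content and length trends removed it was 0.10. KRT7-AS, the antisense gene inside KRT7, had 335, 327 and 311 counts, a small number beside those of KRT7.

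KRT8, the type II keratin of simple epithelia, had 16068, 17914 and 19056 counts, or 1091, 1215 and 1207 CPM. The ratios to the control were nearly equal, 1.11 (95% exact counting interval 1.09 to 1.14) and 1.11 (1.08 to 1.13). The log2 fold change of 0.16, with an SE of 0.10 and an edgeR adjusted p of 0.587, did not pass the test although the labelled knockdown libraries were close to each other, at a ratio of 0.993 (0.973 to 1.01), and with GC content and length trends removed it was 0.04.

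KRT18, the type I partner of KRT8, had 7784, 8668 and 8200 counts, or 528, 588 and 519 CPM. Here the control lay between the labelled knockdown libraries, whose ratios to it were 1.11 (95% exact counting interval 1.08 to 1.15) and 0.983 (0.953 to 1.01). The log2 fold change was 0.07 with an SE of 0.11 and an edgeR adjusted p of 0.848. It changed sign, to -0.10, when GC content and length trends were removed, and to -0.023 without labelled knockdown 1. The count of KRT8 relative to KRT18 was 2.06, 2.07 and 2.32. It was thus highest in labelled knockdown 2, in which KRT18 was lower than in labelled knockdown 1 by a ratio of 0.883 (0.857 to 0.910) while KRT8 was at 0.993 (0.973 to 1.01). The genes overlap head to head on opposite strands by 1084 bases, and part of each one's counts can therefore be shared.

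KRT19, a type I keratin of simple epithelia that lacks the usual tail, had 5092, 5585 and 6876 counts, or 346, 379 and 436 CPM. Both labelled knockdown libraries were above the control, by a ratio of 1.10 (95% exact counting interval 1.06 to 1.14) and 1.26 (1.22 to 1.31). The log2 fold change of 0.24 had an SE of 0.11, an edgeR unadjusted p of 0.0326 and an adjusted p of 0.374, and it was 0.07 with GC content and length trends removed. The count of KRT7 relative to KRT19, at 3.84, 3.90 and 3.76, moved little, whereas that of KRT18 relative to KRT19 was 1.53, 1.55 and 1.19.

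**Figure D4:**
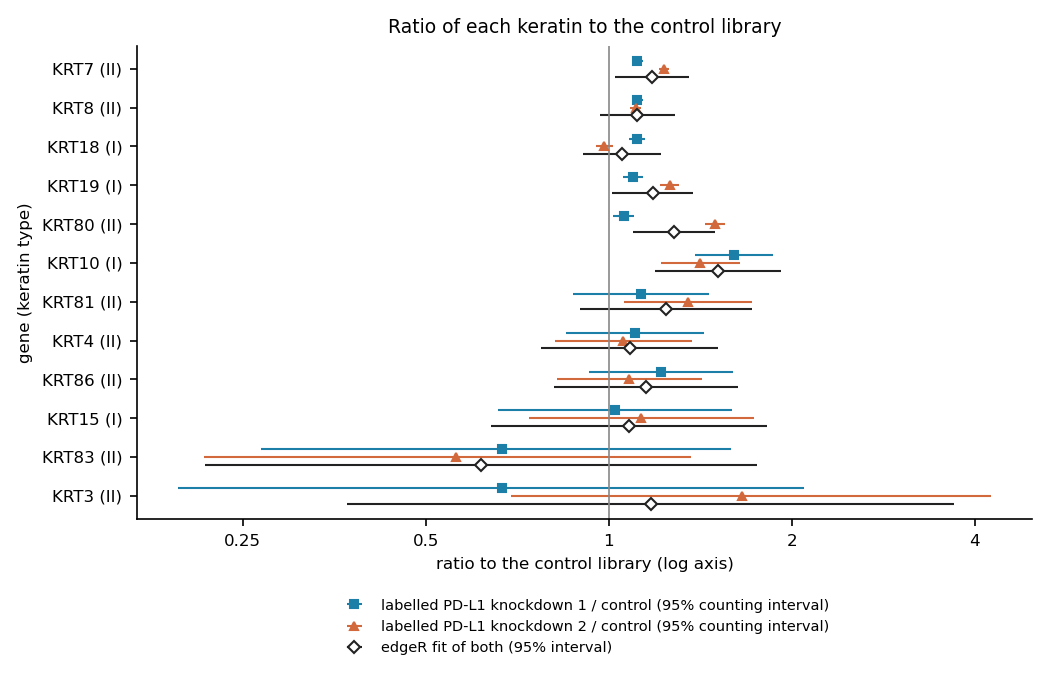
Ratio of each tested keratin to the control library (horizontal axis, logarithmic) for labelled knockdown 1 and labelled knockdown 2, each with its 95% exact counting interval, and for the edgeR fit of both with its 95% interval; keratins are on the vertical axis in order of control counts. KRT10 stands highest among the well counted genes at 1.60 and 1.41, KRT80 is split between 1.06 and 1.49, and the fitted intervals of the others reach or come close to 1.

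The remaining tested members were counted far less. KRT81, a keratin of the hair cortex, had 117, 132 and 169 counts and a fitted value of 0.31 on the log2 scale with an SE of 0.24. KRT86, its near copy, had 101, 123 and 117 counts and 0.20 with an SE of 0.26. Which of these reads belong to which gene is uncertain, because 52.4% of the 31-base words of KRT81 and 44.8% of those of KRT86 occur in other genes. KRT86 also spans KRT81, the pseudogene KRT87P and the end of KRT7 on chromosome 12. KRT87P, a hair keratin pseudogene, was counted more often than either, at 172, 169 and 222.

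KRT4 was the member just above a mean of 100 counts that shares little sequence, and its log2 fold change was 0.11 with an SE of 0.25. KRT15, just below it with 43, 44 and 52 counts, had 0.11 with an SE of 0.38. KRT83, a hair cortex keratin, was the only tested member with a lower fitted value, at 15, 10 and 9 counts and -0.70 with an SE of 0.77. KRT3 was at -0.54 in labelled knockdown 1 and 0.70 in labelled knockdown 2. The edgeR adjusted p of these 6 genes lay between 0.639 and 0.946.

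KRT32, a type I keratin of the hair cuticle, had 7 counts in the control and 0 in both labelled knockdown libraries. For the ratio to the control, the 95% exact counting interval ran up to 0.694 in labelled knockdown 1 and 0.648 in labelled knockdown 2. With under 10 counts summed, it was not tested in the main fit. In the edgeR fit with a minimum of 1 count it passed the fold threshold but was not called. KRT32 was named after its values were seen, out of 10 members with 1 to 9 counts summed. KRT17, at 1, 4 and 3 counts, was the member closest to the minimum of 10, and 8 others had between 1 and 6 counts in all.

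KRT8 and KRT18 have many pseudogenes, and few reads were assigned to these. The 50 named KRT8 pseudogenes, 17 of which had a count, summed to 182, 221 and 297 counts, or 1.13%, 1.23% and 1.56% of those of KRT8. The 67 named KRT18 pseudogenes, 24 with a count, summed to 63, 60 and 56, or 0.809%, 0.692% and 0.683% of KRT18. KRT8P12 was the best counted, at 108, 129 and 173, with a log2 fold change of 0.43, an SE of 0.24 and an edgeR adjusted p of 0.480. Adding the pseudogenes to their parents left the log2 fold change of KRT8 at 0.16 and that of KRT18 at 0.07. Ambiguous reads, if the counting dropped them, would be missing from parents and pseudogenes alike. The effect of such a loss on KRT8 and KRT18 was not tested.

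The genes of proteins that anchor and bind keratins ranged from under 100 counts for EPPK1 and PKP1 to 28577 in the control for PLEC. All 16 linkers and binding proteins were tested and 0 were called with edgeR, against 0.353% of all tested genes. Of the 16, 7 were under an unadjusted p of 0.05 and higher, against 6.82% of all tested genes, and 10 had a fitted value above 0, against 50.2%. Their median log2 fold change was 0.22, and with GC content and length trends removed it was 0.036, with 0 under an unadjusted p of 0.05. DESeq2 called 0 and had 2 under that p, and limma-voom called 0 and had 7. PLEC (plectin, which ties filaments to hemidesmosomes) had 28577, 30937 and 37913 counts and a fitted value of 0.22 on the log2 scale with an SE of 0.10. DST (dystonin, whose epithelial form is a hemidesmosome linker) had 21005, 18564 and 20608 counts and -0.15 with an SE of 0.10. SFN (14-3-3 sigma, which binds KRT17) had 4649, 5722 and 6641 counts and 0.36 with an SE of 0.11, an edgeR unadjusted p of 0.00142 and an adjusted p of 0.130. FAM83H, which recruits a kinase to keratin filaments, had 3835, 4148 and 5085 counts and 0.22 with an SE of 0.11.

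Beyond the 4 best counted linkers, the genes under that unadjusted p, named after their values were seen, were the desmosome genes JUP, PPL and PKP3, the small heat shock protein gene HSPB1, and TRADD, whose protein binds KRT18. Their log2 fold changes were 0.31, 0.33, 0.31, 0.27 and 0.43. DSP, which encodes desmoplakin, the main desmosome anchor of keratins, had 3507, 3017 and 3769 counts and -0.10 with an SE of 0.12.

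Among the other 18 intermediate filament genes, 15 were tested and 0 were called with edgeR, with 2 under an unadjusted p of 0.05, both lamins and both higher, against 6.82% of all tested genes. DESeq2 and limma-voom also called 0, with 1 and 3 under that p. With GC content and length trends removed, 0 were higher and 1, IFFO1, was lower under that p. LMNA had 10265, 11546 and 13634 counts and a fitted value of 0.25 on the log2 scale with an SE of 0.11, and LMNB2 had 9714, 11511 and 13118 and 0.29 with an SE of 0.11. VIM, the filament gene of mesenchymal cells, was counted about as often as KRT18, at 7608, 7842 and 7399, with a log2 fold change of -0.04 and an SE of 0.11. Per length it stood at 99.3, 103 and 90.8 FPKM, below KRT7, KRT8, KRT18 and KRT19. LMNB1 had 2473, 2620 and 2636 counts and 0.04 with an SE of 0.12.

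Of 21 epithelial transcription factors, 16 were tested and 0 were called with edgeR, with 1 higher and 1 lower under an unadjusted p of 0.05, against 6.82% and 4.92% of all tested genes. DESeq2 called 0 and had 0 under that p, and limma-voom called 0 and had 2. With GC content and length trends removed, 0 were under that p. TP63, the master factor of basal and stratified epithelia, and GRHL2, a factor of epithelial junction genes, had no count in any library. The best counted were FOSL2, with 4393, 4523 and 5338 counts, FOSL1, with 2490, 2935 and 2571, TFAP2A, with 1333, 1292 and 1425, and KLF5, with 1286, 1201 and 1437. Their log2 fold changes lay between -0.02 and 0.12. The factors under that unadjusted p, named after their values were seen, were KLF4, at 0.48, and ZEB1, a repressor of epithelial genes, at -0.39, with edgeR adjusted p of 0.360 and 0.316.

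Genes of the cornified envelope, a protein layer of stratified cells, mostly had few or no counts. Of 13, 6 had no count in any library, against 19.1% of all protein-coding genes, and 4 were tested. With edgeR, DESeq2 and limma-voom, 0 were called and 0 were under an unadjusted p of 0.05. Of all tested genes, edgeR called 0.353%, and 6.82% were higher and 4.92% lower under that p. With GC content and length trends removed, 1 gene, CNFN, was lower under that p. FLG (filaggrin, which bundles keratins in the epidermis) was the exception in counts, at 1092, 1073 and 1206 with a log2 fold change of 0.01. Per length it did not stand apart, at 5.77, 5.69 and 5.99 FPKM beside 6.59, 3.81 and 4.30 for CNFN. TGM1, a transglutaminase of the envelope, had 41, 54 and 65 counts, and IVL, involucrin, 5, 2 and 3.

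**Figure D5:**
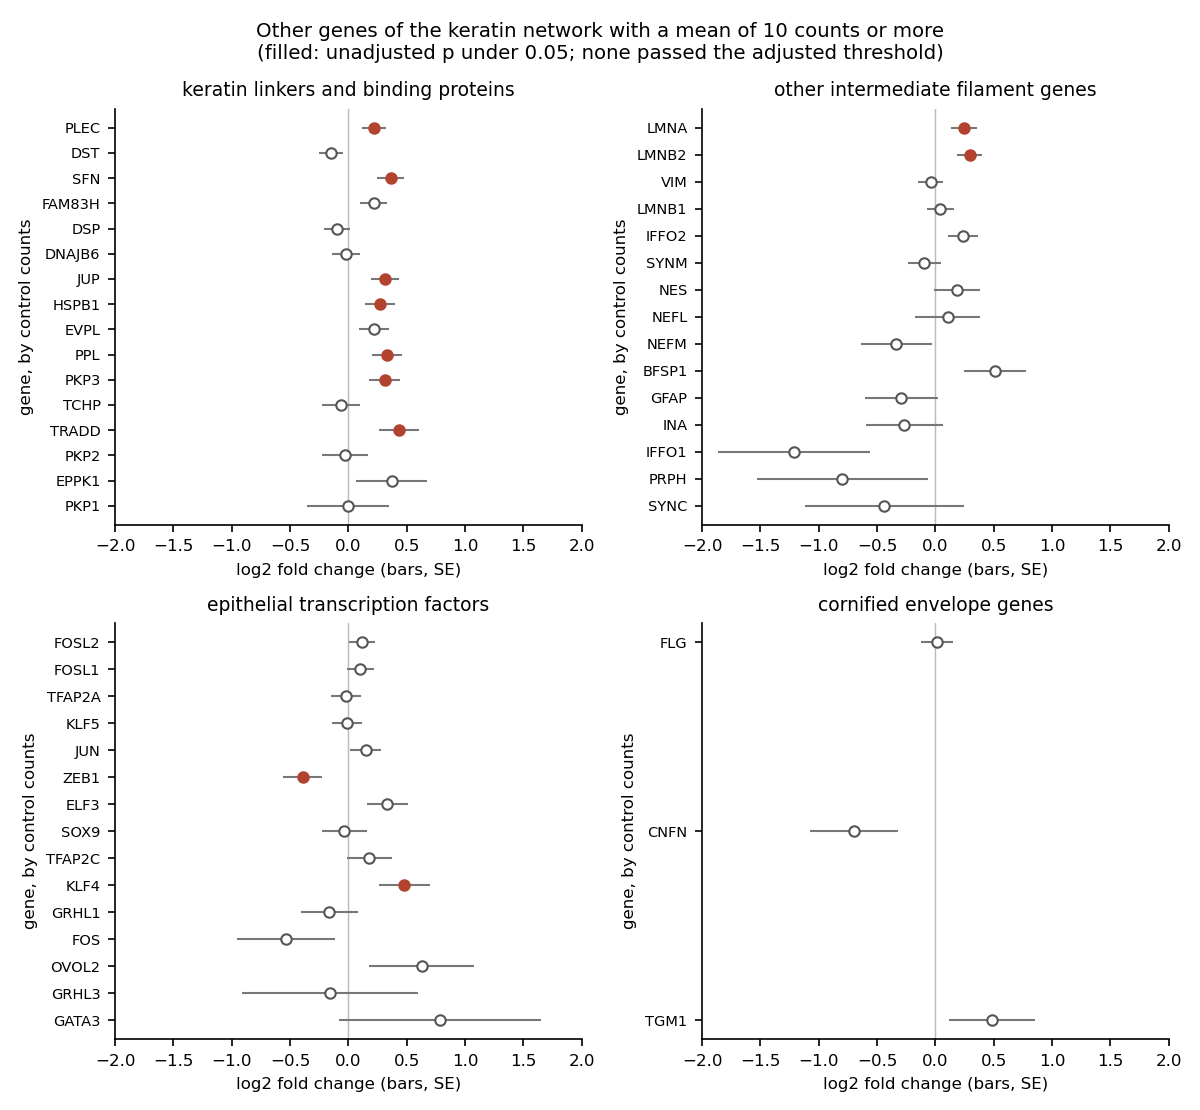
Fitted log2 fold change (horizontal axis, bars show SE) in 4 lists, for genes averaging 10 counts or more, with genes on the vertical axis in order of control counts. Filled points mark an unadjusted p under 0.05, which 7 of the linkers and binding proteins reached, all above 0, and no gene passed the adjusted threshold.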

How the data were processed

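The authors deposited, for each library, raw counts of reads per gene, without normalization, and FPKM, each of which was checked to be the gene's count over its listed length, times a constant per library. Per the labels the submitters' processing notes name Bowtie2 2.0.6, TopHat2 2.0.9, Cufflinks 2.1.1 and Cuffdiff 2.1.1. RNA was poly(A)-selected and primed with random hexamers. Strand use and the treatment of reads matching several genes are not given in the sources used here.

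Genes with at least 10 counts summed (19849) were fitted with edgeR 4.0.16 in R 4.3.3 (TMM, glmQLFit, glmQLFTest), and p-values were adjusted over all of them. The common dispersion was 0.00719. Alternatives were DESeq2 1.42.0, limma-voom 3.58.1, other size factors, count minimums of 1 and 60, removal of the mean log2 ratio in 20 classes of gene length alone or of GC content and length, pseudogene sums and each knockdown library left out. Ratios of libraries carry exact conditional binomial 95% intervals. The libraries carried no molecular identifiers that the sources name, so PCR copies are counted as reads and intervals cover counting error only. Overlaps, shared 31-base words and sequences came from GENCODE release 29, in which all 55 keratins had the listed position. Scripts were tested on simulated data.

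The members and gene lists were chosen with earlier results of these data known. Named genes were the keratins with a mean of at least 100 counts, those next to the limits of 100 and 10 counts, the best counted pseudogenes and up to 4 best counted genes of each other list. KRT32 and the partners at 0 were named after their values were seen. Some marker values and 1 shared sequence are not reported here.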

Additional observations from a re-analysis of the deposited data

How the results depend on the processing

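The count of keratins called at the adjusted threshold was 0 under edgeR and under each of the 8 alternatives with a test. The count past the fold threshold was 1 with a minimum of 1 count (KRT32) and 0 otherwise. The median log2 fold change of the tested keratins was 0.056 with GC content and length trends removed, and 0.16 to 0.24 with either knockdown library left out. KRT18 reversed to -0.10 with GC content and length trends removed. Leaving out a knockdown library gave -0.023 to 0.16 for KRT18 and -0.54 to 0.70 for KRT3; the cause was not tested. Of 96 values of single keratins under alternatives with a test, pseudogene sums included, 95 kept their direction and side of the threshold. Other size factors could change little here. The TMM factors were 1.002 in the control, 0.997 in labelled knockdown 1 and 1.001 in labelled knockdown 2. On principal transcript lengths the type I to type II ratio was 0.439, 0.440 and 0.404 in the control, labelled knockdown 1 and labelled knockdown 2. With KRT10 and TMEM99 summed, the ratio to the control was 1.30 and 1.14. Over all tested genes, 70 were called with edgeR, 100 with a minimum of 60 counts, 42 with limma-voom, 27 with GC content and length trends removed and 6 with DESeq2. Leaving out a knockdown library leaves 1 library against 1, so those values carry no test. No paired analysis was possible because the control has 1 library. Its lack of a replicate limits every comparison, and a member at 0 can be present below the level of 3 counts.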
